A study of Mus musculus with 12 samples.

Results

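The classic surface markers of mesenchymal stem cells (MSCs) described here are 10 mouse genes, Nes, Cspg4, Mcam, Ngfr, Thy1, Eng, Nt5e, Pdpn, Cd200 and Cd44. They were chosen by name, as markers that are listed for mesenchymal or skeletal stem cells and that were not used in the sorts of this study. The Ensembl identifiers of the count tables were matched to mouse symbols, and all 10 genes were found among 49585. All 10 also passed the filter on low values, which kept 18648 genes with at least 0.5 CPM (counts scaled to the library total) in at least 1 library. All other CPM values given are scaled to the library total adjusted by TMM, a correction for differences in composition.

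These genes come from separate traditions of defining stromal cells. Nes (nestin, an intermediate filament protein that is not itself on the cell surface), Cspg4 (the NG2 proteoglycan), Mcam (the adhesion molecule CD146) and Ngfr (the neurotrophin receptor CD271) are known from perivascular stromal cells of the marrow. Thy1 (CD90), Eng (CD105), Nt5e (CD73) and Cd44 are known from the definition of cultured MSCs, and Pdpn (podoplanin) and Cd200 from schemes that separate skeletal stem cells from their descendants.

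RNA sequencing was performed on 4 populations of stromal cells sorted from the bones of wild-type male C57BL/6 mice aged 8 to 10 weeks at steady state, with 3 libraries of 2000 cells for each population. All populations were gated as CD45-, Ter119- and CD31-, which removes haematopoietic, erythroid and endothelial cells. Itga8+ MSCs were further gated as Itga8+, Alcam+ and Sca-1-, and Itga8- Alcam+ bone-lining cells (Itga8- BLCs) as Itga8-, Alcam+ and Sca-1-. Sca-1+ MSCs were gated as Alcam- and Sca-1+, and CD51+CD140a+ marrow MSCs on those integrin and PDGF receptor proteins. The first 3 populations were released with collagenase from bone fragments after flushing, whereas CD51+CD140a+ marrow MSCs came from flushed marrow digested with Accumax, so tissue, digestion and population cannot be told apart in any comparison with CD51+CD140a+ marrow MSCs. The labels do not say whether the libraries of a population came from separate mice, so p-values measure the spread between these libraries. Since these are bulk samples, fewer cells of a type and less RNA per cell cannot be told apart.

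Total counts ranged from 17580677 to 31332475 per library, and 3 counts corresponded to 0.0820 to 0.18 CPM, which was taken as the floor. Transcripts of the sort genes followed the gates in part. Itga8 was 35.2 to 199 CPM in Itga8+ MSCs and at most 4.17 CPM in Itga8- BLCs, but 53.1 to 82.9 CPM in CD51+CD140a+ marrow MSCs, and Pdgfra (CD140a) was 734 to 1019 CPM in Sca-1+ MSCs and 682 to 867 CPM in CD51+CD140a+ marrow MSCs. The summed level of 5 genes of LepR+ stromal cells was 38853 to 54445 CPM in CD51+CD140a+ marrow MSCs against at most 557 CPM elsewhere. Osteoblast genes summed to 37807 to 114516 CPM in Itga8- BLCs, tendon genes to 12896 to 23551 CPM in Itga8+ MSCs, and 4 adventitial fibroblast genes to 1495 to 1934 CPM in Sca-1+ MSCs, in each case above every library of the other populations. Libraries stood apart within the Alcam+ populations. Relative to its population, Itga8+ MSC replicate 3 had long genes (exons of 6000 bases or more, 3069 genes) higher by a median of 0.51 on the log2 scale and short genes (under 2000 bases, 1112 genes) lower, with a median of -0.63, and Itga8- BLC replicate 2 had medians of 0.48 and -0.56. Itga8+ MSC replicate 2 showed the opposite, with medians of -0.58 and 0.98, as did Itga8- BLC replicate 3, with -0.38 and 0.57. No such median exceeded 0.16 in size in Sca-1+ or CD51+CD140a+ marrow MSCs. Values of the markers were therefore also obtained with Itga8+ MSC replicate 3 and Itga8- BLC replicate 2 left out, and again with Itga8+ MSC replicate 2 and Itga8- BLC replicate 3 left out, choices made after the data had been seen. Long and short genes also differed between whole populations. Median log2 differences were -0.54 and 0.60 for Itga8+ over Sca-1+ MSCs, and -0.51 and 0.56 for Itga8- BLCs over Sca-1+ MSCs. Over CD51+CD140a+ marrow MSCs they were -0.48 and 0.85 for Itga8+ MSCs, and -0.50 and 0.79 for Itga8- BLCs. In the remaining comparisons none exceeded 0.15 in size. The part of gene length in the marker differences was not tested.

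No population was marked by all 10 genes, and the markers did not order the populations in the same way. Itga8- BLCs had the highest mean of Nes, Cspg4, Mcam, Ngfr, Nt5e and Cd200, Sca-1+ MSCs of Thy1, Pdpn and Cd44, and CD51+CD140a+ marrow MSCs of Eng. Itga8+ MSCs had the highest mean of none of them. Before the TMM adjustment, all 10 markers reached 0.5 CPM in at least 1 library of Itga8+ MSCs, 9 did so in Itga8- BLCs (all but Thy1) and in Sca-1+ MSCs (all but Ngfr), and 7 did so in CD51+CD140a+ marrow MSCs (all but Ngfr, Thy1 and Pdpn). In Itga8+ MSCs, Ngfr reached it only in replicate 1 (13 counts, against 2 and 0) and Thy1 only in replicate 2 (22 counts, against 2 and 3).

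**Figure D1:**
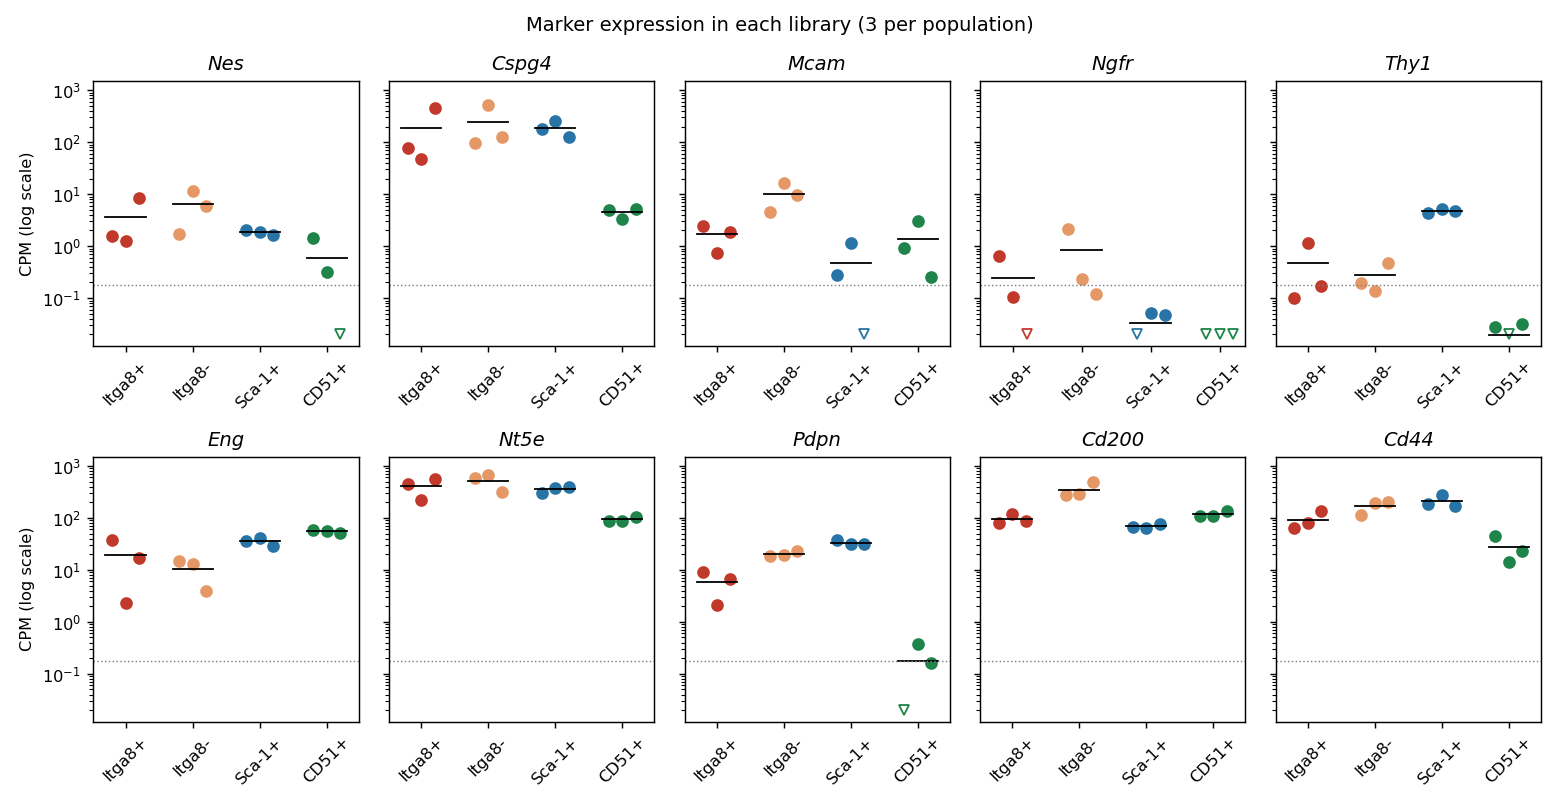
CPM of each marker on a log axis, with 1 point per library, 3 libraries per population (CD51+ stands for CD51+CD140a+ marrow MSCs) and black lines at the means. Open triangles are libraries with 0 counts, drawn at the bottom, and the dotted line is the highest floor; Cspg4 and Pdpn sit far lower in CD51+CD140a+ marrow MSCs than elsewhere, and Eng is highest there.

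A gene was called between populations when the edgeR quasi-likelihood test gave a false discovery rate (FDR, the Benjamini-Hochberg adjusted p over all genes tested) under 0.1 and the fold change was above 2. Between Itga8+ MSCs and Itga8- BLCs, 1 of 10 markers was called (Cd200, lower in Itga8+ MSCs), where 3.82% of all tested genes were called. Against Sca-1+ MSCs, 3 markers were lower in Itga8+ MSCs (Thy1, Pdpn and Cd44) and 0 were higher, against 21.7% of all genes. Against CD51+CD140a+ marrow MSCs, 6 were higher in Itga8+ MSCs (Cspg4, Ngfr, Thy1, Nt5e, Pdpn and Cd44) and 0 were lower, against 35.6% of all genes. Itga8- BLCs differed from Sca-1+ MSCs in 4 markers, with Mcam, Ngfr and Cd200 higher and Thy1 lower in Itga8- BLCs, where 26.4% of all genes were called. From CD51+CD140a+ marrow MSCs they differed in all 10, with 9 higher and Eng lower, where 35.3% were called. Sca-1+ MSCs had 5 markers above CD51+CD140a+ marrow MSCs (Cspg4, Thy1, Nt5e, Pdpn and Cd44) and 0 below, where 20.5% were called. The comparisons share libraries, so the 5 genes called against CD51+CD140a+ marrow MSCs in each of the endosteal populations rest on the same 3 CD51+CD140a+ libraries. The median log2 fold change of the markers over CD51+CD140a+ marrow MSCs was 2.39 in Itga8+ MSCs, 3.13 in Itga8- BLCs and 2.38 in Sca-1+ MSCs, beside medians of 0.18, 0.09 and -0.0026 over all tested genes. These counts and medians include Ngfr, which passed the filter on low values only through Itga8+ MSC and Itga8- BLC libraries. Its calls as higher there are no support of a difference. For single genes, the exact permutation test (two-sided, 3 against 3 libraries) cannot give a p below 0.1, which is the value it gave wherever the libraries of both populations did not overlap.

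**Figure D2:**
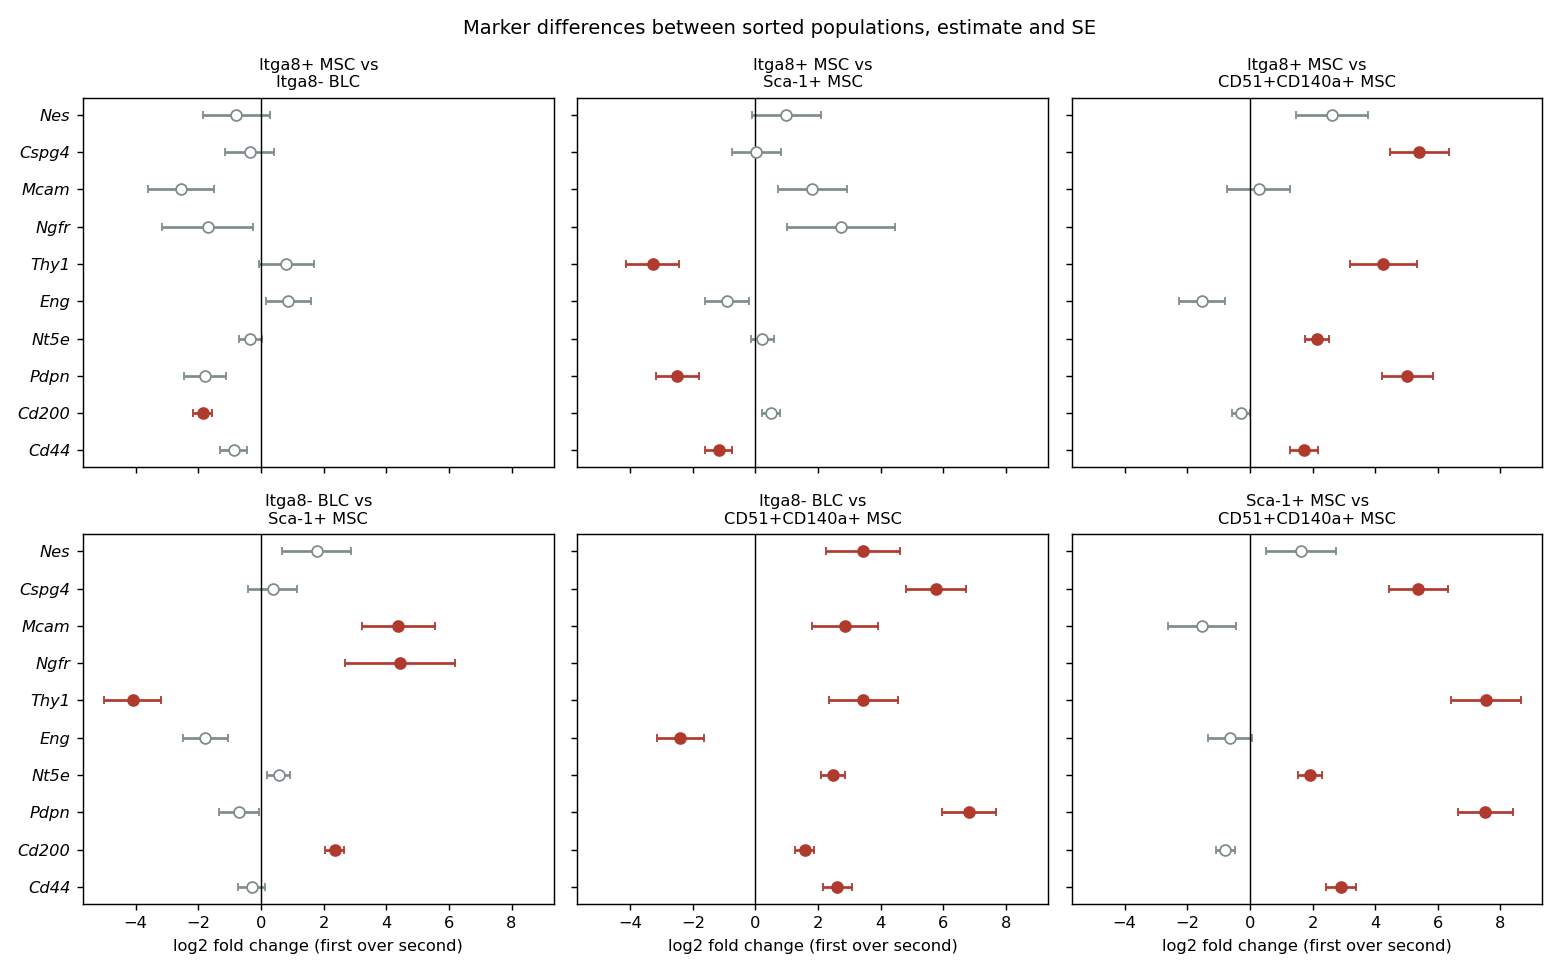
Log2 fold change of each marker (first population over second) with its SE in the 6 comparisons, from the edgeR fit of 12 libraries. Filled red points passed FDR under 0.1 and fold change above 2. Ngfr is left out against CD51+CD140a+ marrow MSCs, where it had 0 counts. It is drawn against Sca-1+ MSCs, although it was at the floor there with at most 1 count per library. Thy1 is drawn against CD51+CD140a+ marrow MSCs, where it was also at the floor. Most red points lie to the right in the panels against CD51+CD140a+ marrow MSCs.

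Per transcript length, Nt5e or Cd200 was the most abundant marker in each population. TPM (transcript abundance scaled to the library, computed from the exon length of each gene) summed over the 10 markers to 404 in Itga8+ MSCs, 676 in Itga8- BLCs, 512 in the Sca-1+ and 262 in the CD51+CD140a+ marrow MSCs. Nt5e came first in Itga8+ MSCs at 171 ± 96.0 TPM (SD, n = 3) and in Sca-1+ MSCs at 153 ± 16.0 TPM. In Itga8+ MSC replicate 2, the library lowest in long genes, the order was turned, with 63.0 TPM of Nt5e (8602 exon bases) and 90.6 TPM of Cd200. Cd200 came first in Itga8- BLCs at 298 ± 35.2 TPM and in CD51+CD140a+ marrow MSCs at 142 ± 14.8 TPM. Cd44 ranked second in Sca-1+ MSCs at 22.5% of the summed TPM, above Cd200 at 15%. Eng ranked second in CD51+CD140a+ marrow MSCs at 55.2 ± 7.23 TPM but not above the fifth place elsewhere. The means of Nes, Mcam, Ngfr and Thy1 stayed below 10 TPM in every population, with 15.8 TPM of Mcam in Itga8- BLC replicate 2.

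**Figure D3:**
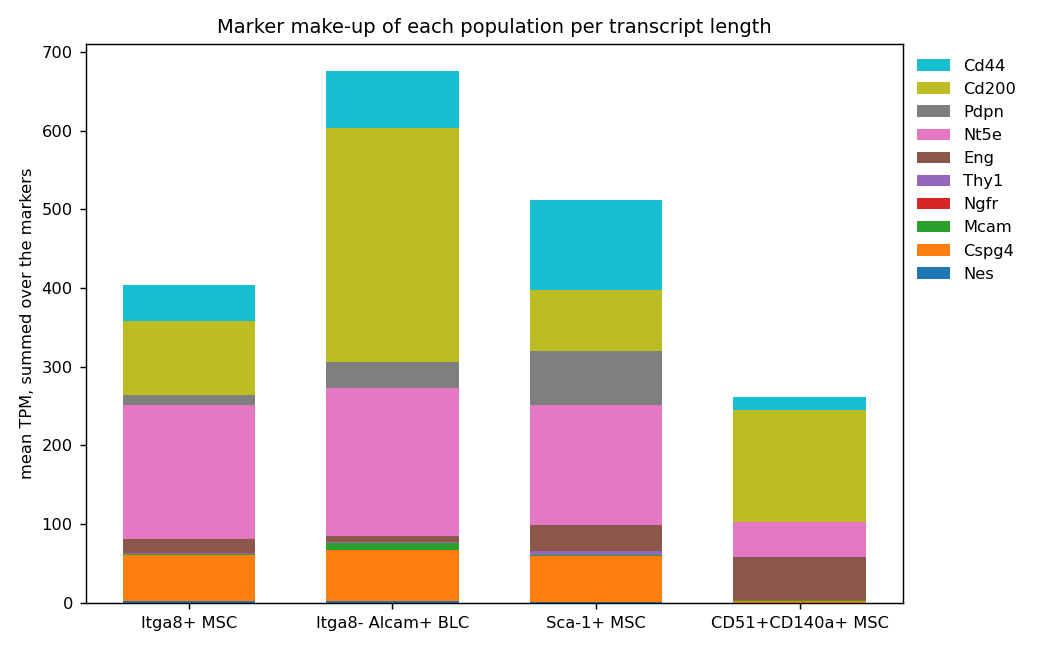
Mean TPM of the 10 markers stacked for each population, from 3 libraries each. Nt5e is the widest band in Itga8+ and Sca-1+ MSCs and Cd200 in the other bars. In CD51+CD140a+ marrow MSCs the Cspg4 band is nearly missing and the Eng band is wider than in the other bars. The Cspg4 band of each Alcam+ bar rests largely on 1 library (141 TPM, against 9.88 to 26.4 TPM in the others).

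Cspg4 was the perivascular marker with the largest range in CPM. The gene lies at chr9:56865033-56899870 (mm10, GENCODE M21, plus strand) and encodes NG2, a transmembrane proteoglycan that binds type VI collagen and marks pericytes. Its level was 77.5, 47.5 and 448 CPM in Itga8+ MSCs, 94.4, 511 and 128 CPM in Itga8- BLCs, and 180, 256 and 128 CPM in Sca-1+ MSCs. It was 5.0, 3.38 and 5.12 CPM in CD51+CD140a+ marrow MSCs, below every other library. Cspg4 was 42.4-fold higher in Itga8+ than in CD51+CD140a+ marrow MSCs (log2 fold change 5.41 ± 0.94 SE, FDR = 0.00127), 54.2-fold higher in Itga8- BLCs (FDR = 0.000903) and 41.7-fold higher in Sca-1+ MSCs (FDR = 0.00156). Among the populations from bone the libraries overlapped, and the log2 fold change was 0.02 ± 0.78 between Itga8+ and Sca-1+ MSCs (FDR = 0.995). The values of 448 and 511 CPM belong to the libraries in which long genes were high, and Cspg4, with 11931 exon bases, is itself a long gene. Without both libraries, Cspg4 was lower in Itga8+ than in Sca-1+ MSCs, with a log2 fold change of -1.58 (FDR = 0.0140), while its difference from CD51+CD140a+ marrow MSCs kept its direction and call. The size of that difference moved, with log2 fold changes of 3.80 for Itga8+ MSCs without their replicate 3 and 4.62 for Itga8- BLCs without their replicate 2. Cspg4 was also called lower in Itga8+ than in Sca-1+ MSCs without Itga8+ replicate 3 alone (log2 fold change -1.62, FDR = 0.0922). The part of gene length in these differences was not tested. Genes of 6000 bases or more were lower in Itga8+ MSCs than in CD51+CD140a+ marrow MSCs, with a median log2 difference of -0.48.

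Of 8 mural genes tested against CD51+CD140a+ marrow MSCs, 2 were called higher and 2 lower in Itga8+ MSCs (35.6% of all genes called), 1 higher and 2 lower in Itga8- BLCs (35.3%), and 0 higher and 2 lower in Sca-1+ MSCs (20.5%). Abcc9 (a potassium channel subunit) was 85.2 to 112 CPM and Notch3 (a receptor of mural cells) 61.7 to 168 CPM in CD51+CD140a+ marrow MSCs, where Cspg4 was lowest. In Itga8+ MSCs they were at most 2.31 and 1.5 CPM, and both were called lower there than in CD51+CD140a+ marrow MSCs (FDR = 0.00202 and 0.00151). The contractile genes Acta2 and Tagln were called higher in Itga8+ than in CD51+CD140a+ marrow MSCs, with 63.5 to 242 CPM and 29.8 to 101 CPM against at most 28.1 and 12.2 CPM. Summed over 8 mural genes, none of them at 0 in any population, the level was 130 to 352 CPM in Itga8+ MSCs, 48.4 to 64.9 CPM in Itga8- BLCs, 37.5 to 72.2 CPM in Sca-1+ MSCs and 228 to 279 CPM in CD51+CD140a+ marrow MSCs. The part of mural cells in the Cspg4 levels was not tested. All 3 type VI collagen genes had their highest means in Sca-1+ MSCs, with 4379 ± 571 CPM of Col6a1, 2044 ± 287 CPM of Col6a2 and 1131 ± 276 CPM of Col6a3. All 3 were called lower in Itga8- BLCs than in Sca-1+ MSCs.

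Nes, at chr3:87971078-87980451 on the plus strand, was low in all populations. It was 1.53, 1.25 and 8.32 CPM in Itga8+ MSCs, 1.69, 11.6 and 5.94 CPM in Itga8- BLCs, 2.05, 1.88 and 1.64 CPM in Sca-1+ MSCs and 1.45, 0.315 and 0 CPM in CD51+CD140a+ marrow MSCs. The highest libraries of both Alcam+ populations were again those with high long genes, and Nes has 6416 exon bases. Among the 6 comparisons, only Itga8- BLCs against CD51+CD140a+ marrow MSCs passed the test, with a log2 fold change of 3.42 ± 1.18 (FDR = 0.0458). It was not called without Itga8- BLC replicate 2 (FDR = 0.117), without CD51+CD140a+ replicate 2 (FDR = 0.130) and with replicate number as a block (FDR = 0.111), and its log2 fold change was 5.26 without CD51+CD140a+ replicate 1. Itga8+ against CD51+CD140a+ marrow MSCs did not pass (log2 fold change 2.63, FDR = 0.103) but was called in 9 of 18 alternatives, among them DESeq2 (FDR = 0.0451), limma-trend (FDR = 0.0538) and leaving out CD51+CD140a+ replicate 1 (FDR = 0.0371) or Itga8+ replicate 1 or 2 (FDR = 0.0961 and 0.0748). Leaving out single libraries moved this log2 fold change from 1.22 to 4.47. In CD51+CD140a+ marrow MSCs, the population with the lowest mean of Nes, the libraries overlapped with those of Itga8+ MSCs. Among its partner filaments, Des (desmin) was 19.6 to 35.1 CPM in CD51+CD140a+ marrow MSCs and at most 1.63 CPM in Sca-1+ MSCs, and Synm (synemin) was 77.5 to 102 CPM in Sca-1+ MSCs and at most 35.3 CPM elsewhere.

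Mcam had its highest values in Itga8- BLCs, although not every difference was called. Located at chr9:44134469-44142727 on the plus strand, 85890 bases from Thy1, Mcam encodes a cell adhesion molecule of endothelial and perivascular cells that binds laminin. It was 4.58, 16.1 and 9.65 CPM in Itga8- BLCs, and 2.47, 0.727 and 1.91 CPM in Itga8+ MSCs. Among Sca-1+ MSCs it was 0.277, 1.17 and 0 CPM, and in CD51+CD140a+ marrow MSCs 0.929, 3.01 and 0.258 CPM. The 3 libraries of Itga8- BLCs were above all others. The fold change was 20.9 over Sca-1+ MSCs (FDR = 0.0202) and 7.20 over CD51+CD140a+ marrow MSCs (FDR = 0.0606), and the latter was no longer called without the 2 libraries in which long genes were high (FDR = 0.141), nor without either Itga8- BLC replicate 2 or 3 or CD51+CD140a+ replicate 1 or 3 (FDR = 0.105 to 0.161). The log2 fold change over Sca-1+ MSCs, 4.38, was 6.2 without Sca-1+ replicate 2 and 3.79 without replicate 3, and that over CD51+CD140a+ marrow MSCs, 2.85, was 4.07 without CD51+CD140a+ replicate 2. Over Itga8+ MSCs Mcam was 5.93-fold higher, which did not pass (FDR = 0.329). The 7 endothelial genes, none of them at 0 in any population, summed to 17.3 to 20.2 CPM in Itga8- BLCs and 13.9 to 33.2 CPM in Itga8+ MSCs and 9.78 to 29.0 CPM in CD51+CD140a+ marrow MSCs. They summed to 76.3 to 111 CPM in Sca-1+ MSCs, mostly from Tek (56.2 to 93.3 CPM), while Cdh5 was at most 1.37 CPM there, and their part in the Mcam levels was not tested. Lama4, which encodes a laminin chain bound by Mcam, had its lowest mean where Mcam was highest, with 28.4 ± 27.0 CPM in Itga8+ MSCs, 15.2 ± 15.8 CPM in Itga8- BLCs, 221 ± 56.2 CPM in Sca-1+ MSCs and 334 ± 41.3 CPM in CD51+CD140a+ marrow MSCs.

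Ngfr was at or near the floor in most libraries and passed the filter on low values only through Itga8+ MSC and Itga8- BLC libraries, so that its calls as higher in those populations are no support of a difference. Ngfr, at chr11:95568818-95587735 on the minus strand, encodes the low-affinity neurotrophin receptor. It had 13, 2 and 0 counts in Itga8+ MSCs, 43, 5 and 2 counts in Itga8- BLCs, 0, 1 and 1 counts in Sca-1+ MSCs and no count in any of the 3 libraries of CD51+CD140a+ marrow MSCs. The call in Itga8+ MSCs rests on replicate 1, without which the FDR was 0.224, and it was also lost without any 1 of the CD51+CD140a+ libraries (FDR = 0.115 to 0.122). With the floor of 3 counts per library in place of 0, Ngfr was at least 2.82-fold higher in Itga8+ MSCs and at least 9.42-fold higher in Itga8- BLCs than in CD51+CD140a+ marrow MSCs (FDR = 0.0583 and 0.0219). The bound for Itga8- BLCs rests on replicate 1, which held 43 of 50 counts (FDR = 0.0923 without it). Over Sca-1+ MSCs the ratio of summed counts in Itga8- BLCs was 25.3, with an exact 95% counting interval of 6.65 to 215 (FDR = 0.0990). That call was lost without Itga8- BLC replicate 1, where the fitted log2 fold change fell from 4.43 to 2.20 (FDR = 0.447), or 3 (FDR = 0.101), without any 1 Sca-1+ library (FDR = 0.198 to 0.229) and with replicate number as a block (FDR = 0.242). Such intervals cover counting error only, because reads of amplified copies are not separate molecules. Schwann cells of nerves are known to express Ngfr. Schwann genes summed to 118, 146 and 186 CPM in Itga8- BLC replicates 1, 2 and 3, to 57.9 to 127 CPM in Itga8+ MSCs, and to at most 24.6 CPM in the other populations. All 5 Schwann genes were called higher in Itga8- BLCs than in Sca-1+ MSCs and than in CD51+CD140a+ marrow MSCs. Their part in the Ngfr counts was not tested.

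Other neurotrophin genes were far above Ngfr. Ntrk2, the receptor for BDNF, was 124 ± 42.8 CPM in Sca-1+ MSCs, 38.1 ± 11.8 CPM in Itga8+ MSCs, 18.9 ± 5.88 CPM in Itga8- BLCs and 1.63 ± 0.332 CPM in CD51+CD140a+ marrow MSCs, and every pair but the 2 Alcam+ populations was called. Ntrk3 was 6.75 to 12.4 CPM in Sca-1+ MSCs and at most 0.612 CPM elsewhere. The ligand gene Bdnf was highest in Itga8+ MSCs at 11.2 ± 6.24 CPM and was called higher there than in Itga8- BLCs (log2 fold change 3.81 ± 0.97, FDR = 0.0646).

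Thy1 separated Sca-1+ MSCs from the rest. The gene lies at chr9:44043384-44048579 on the plus strand and encodes a small GPI-anchored glycoprotein of fibroblasts, neurons and T cells. It was 4.26, 5.09 and 4.64 CPM in Sca-1+ MSCs, from 77, 100 and 99 counts. In Itga8+ MSCs it was 0.099, 1.14 and 0.173 CPM and in Itga8- BLCs 0.199, 0.139 and 0.480 CPM. CD51+CD140a+ marrow MSCs had 1, 0 and 1 counts. Every Sca-1+ library was thus above every other library. Thy1 was 9.76-fold lower in Itga8+ MSCs (FDR = 0.0240) and 17.1-fold lower in Itga8- BLCs (FDR = 0.00820) than in Sca-1+ MSCs. Over CD51+CD140a+ marrow MSCs, the ratio of summed counts in Sca-1+ MSCs was 240, with an exact 95% counting interval of 65.7 to 1988 (FDR = 0.000477), and in Itga8+ MSCs 24.4 with an interval of 6.13 to 212 (FDR = 0.0114). Replicate 2 held 22 of the 27 counts in Itga8+ MSCs. Without it the log2 fold change over CD51+CD140a+ marrow MSCs fell from 4.26 to 2.51 (FDR = 0.0719) and that over Sca-1+ MSCs went from -3.29 to -5.08. For Itga8- BLCs over Sca-1+ MSCs it was -4.74 without Itga8- BLC replicate 3. The call of Thy1 between Itga8- BLCs and CD51+CD140a+ marrow MSCs was lost without Itga8- BLC replicate 3 (FDR = 0.114). Even in Sca-1+ MSCs Thy1 was only 5.79 ± 0.479 TPM. The T cell gene Cd3e had 0 counts in all 12 libraries.

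Nt5e was abundant in all populations and lowest in CD51+CD140a+ marrow MSCs. It lies at chr9:88327197-88372092 on the plus strand and encodes CD73, the ectoenzyme that converts AMP to adenosine. Nt5e was 453, 218 and 568 CPM in Itga8+ MSCs, 590, 657 and 317 CPM in Itga8- BLCs, 304, 370 and 387 CPM in Sca-1+ MSCs and 85.3, 88.5 and 106 CPM in CD51+CD140a+ marrow MSCs. The populations from bone overlapped with one another, and all their libraries were above all those of CD51+CD140a+ marrow MSCs. The difference was 4.43-fold for Itga8+ MSCs (FDR = 0.00136), 5.60-fold for Itga8- BLCs (FDR = 0.000536) and 3.80-fold for Sca-1+ MSCs (FDR = 0.00333). Between Itga8+ and Sca-1+ MSCs the log2 fold change was 0.22 ± 0.36 (FDR = 0.696), and it turned to -0.06 without the 2 libraries in which long genes were high, but was 0.56 without the 2 in which they were low. Of 6 genes around adenosine, 2 were called higher and 1 lower in Itga8+ than in CD51+CD140a+ marrow MSCs (35.6% of all genes called). In Itga8- BLCs 2 were higher and 2 lower than there (35.3%), and in Sca-1+ MSCs 2 higher and 0 lower (20.5%). Relative to Sca-1+ MSCs, 2 were higher and 0 lower in Itga8+ MSCs (21.7%), and 1 higher and 1 lower in Itga8- BLCs (26.4%). Between the Alcam+ populations 1 was higher in Itga8+ MSCs and 0 lower (3.82%). The receptor gene Adora1 was 9.25 to 15 CPM in Itga8+ MSCs, 3.78 to 13.6 CPM in Itga8- BLCs and at most 1.48 CPM in Sca-1+ MSCs, with 0 counts in CD51+CD140a+ marrow MSCs. Adora2b was lowest in CD51+CD140a+ marrow MSCs at 0.656 ± 0.581 CPM and peaked in Sca-1+ MSCs at 9.36 ± 1.54 CPM. Entpd1 (CD39), whose product supplies AMP, was highest in CD51+CD140a+ marrow MSCs at 9.61 ± 2.45 CPM, against 3.19 ± 0.808 CPM in Itga8+ MSCs (FDR = 0.0187).

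Eng was the only marker with its highest level in CD51+CD140a+ marrow MSCs. The gene lies at chr2:32646595-32682669 on the plus strand and encodes endoglin, a co-receptor for BMP9 and TGF-β ligands. It was 58.7, 56.6 and 51.0 CPM in CD51+CD140a+ marrow MSCs and 36.6, 41.9 and 29.2 CPM in Sca-1+ MSCs. In Itga8+ MSCs the libraries spread 16.6-fold, at 37.9, 2.29 and 17.3 CPM, and Itga8- BLCs had 14.6, 12.9 and 3.90 CPM. All CD51+CD140a+ libraries were above all others. The difference from CD51+CD140a+ marrow MSCs was called only for Itga8- BLCs, which were 5.28-fold lower (log2 fold change -2.40 ± 0.75, FDR = 0.0296). Itga8+ MSCs were lower by a log2 fold change of -1.53 ± 0.72 (FDR = 0.127, but 0.0891 with DESeq2, 0.0498 with limma-trend and 0.0367 without Itga8+ replicate 1), with the lowest value in the library in which long genes were low. Leaving out single libraries moved this log2 fold change from -2.50 to -0.98. Itga8- BLCs were also 3.42-fold lower than Sca-1+ MSCs, with no overlap of libraries, which did not pass (FDR = 0.104) but was called in 7 of 18 alternatives, among them DESeq2 (FDR = 0.0463). Eng shares 1.51% of its exon bases with Fpgs on the opposite strand. The 5 genes listed as partners of endoglin, which encode receptors of the TGF-β and BMP family and the co-receptor betaglycan, were ordered in different ways. Acvrl1 (ALK1) was 39.9 ± 5.33 CPM in CD51+CD140a+ marrow MSCs, 33.7 ± 3.97 CPM in Sca-1+ MSCs, 2.98 ± 0.952 CPM in Itga8+ MSCs and 3.71 ± 1.46 CPM in Itga8- BLCs. Acvrl1 and Bmpr2 were called lower in each Alcam+ population than in Sca-1+ MSCs and than in CD51+CD140a+ marrow MSCs, with FDR from 3.01e-05 to 0.0183. Tgfbr3, which encodes betaglycan, was also highest in CD51+CD140a+ marrow MSCs, at 871 ± 2.36 CPM, whereas Bmpr2 and Tgfbr1 had their highest means in Sca-1+ MSCs, at 21.2 ± 3.00 and 168 ± 8.18 CPM. Tgfbr2 was lowest in CD51+CD140a+ marrow MSCs, at 137 ± 30.8 CPM against 389 ± 306 CPM in Itga8+ MSCs, with no comparison with CD51+CD140a+ marrow MSCs called. Of the endothelial genes, whose sums are given with Mcam, 0 of 7 were called higher in CD51+CD140a+ marrow MSCs than in any other population, and their part in the Eng levels was not tested.

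Cd44 was high in the populations from bone and lower in CD51+CD140a+ marrow MSCs. Located at chr2:102811141-102901665 on the minus strand, it encodes a hyaluronan receptor that leukocytes carry as well. It was 183, 274 and 172 CPM in Sca-1+ MSCs, 115, 192 and 203 CPM in Itga8- BLCs, 62.9, 78.8 and 136 CPM in Itga8+ MSCs and 45.4, 14.3 and 23.6 CPM in CD51+CD140a+ marrow MSCs. Itga8+ MSCs were between the other populations, with no library overlapping those of Sca-1+ or CD51+CD140a+ marrow MSCs. Cd44 was 2.27-fold lower in Itga8+ than in Sca-1+ MSCs (FDR = 0.0909), a call that was lost in 8 of 18 alternative analyses, among them the replicate block (FDR = 0.150) and leaving out Itga8+ replicate 1 or 2 or any 1 Sca-1+ library (FDR = 0.137 to 0.261), and 3.33-fold higher than in CD51+CD140a+ marrow MSCs (FDR = 0.0132). Sca-1+ MSCs were 7.55-fold above CD51+CD140a+ marrow MSCs (FDR = 0.000901). Myeloid and lymphoid genes summed to 478 to 7286 CPM in Itga8+ MSCs, 1352 to 2274 CPM in Itga8- BLCs, 198 to 696 CPM in Sca-1+ MSCs and 64.9 to 154 CPM in CD51+CD140a+ marrow MSCs. The highest sum, 7286 CPM, was in Itga8+ MSC replicate 2, whose Cd44 level of 78.8 CPM was the middle one of its population, and the part of blood cells in Cd44 was not tested. The hyaluronan synthase Has1 was 2677 ± 497 CPM in Sca-1+ MSCs, 509 ± 215 CPM in Itga8- BLCs, 221 ± 32.5 CPM in Itga8+ MSCs and 1.70 ± 0.407 CPM in CD51+CD140a+ marrow MSCs, and all 6 comparisons of it were called.

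Pdpn was graded across the populations. It lies at chr4:143267431-143299564 on the minus strand and encodes podoplanin, a mucin-like protein that links to the cytoskeleton through ezrin and moesin. Its level was 37.8, 31.5 and 31.0 CPM in Sca-1+ MSCs, 18.4, 19.4 and 23.4 CPM in Itga8- BLCs, 9.05, 2.13 and 6.59 CPM in Itga8+ MSCs and 0, 0.373 and 0.161 CPM in CD51+CD140a+ marrow MSCs. No library overlapped with those of a neighbouring population in this order. Pdpn was 32.5-fold higher in Itga8+ than in CD51+CD140a+ marrow MSCs (FDR = 0.000739), 112-fold higher in Itga8- BLCs (FDR = 0.000130) and 183-fold higher in Sca-1+ MSCs (FDR = 9.08e-05). These folds depend on the few counts in CD51+CD140a+ marrow MSCs, and their log2 values of 5.02, 6.81 and 7.52 were 6.18, 7.96 and 8.67 without CD51+CD140a+ replicate 2 and 4.43, 6.22 and 6.93 without replicate 1. It was 5.64-fold lower in Itga8+ than in Sca-1+ MSCs (FDR = 0.0286), whereas the step from Itga8+ MSCs to Itga8- BLCs (log2 fold change -1.78 ± 0.66, FDR = 0.264) and that from Itga8- BLCs to Sca-1+ MSCs (-0.71 ± 0.64, FDR = 0.455) did not pass. Osteocytes also express Pdpn. Osteocyte genes summed to 1684 to 2314 CPM in Itga8- BLCs, almost all from Dmp1, and to 26.2 to 43.1 CPM in Sca-1+ MSCs. They summed to 96.4 to 114 CPM in CD51+CD140a+ marrow MSCs and to 0.519 to 4.39 CPM in Itga8+ MSCs, and their part in the Pdpn levels was not tested. Of its cytoskeletal partners, Ezr was 296 ± 106 CPM in Itga8+ MSCs, 266 ± 29.5 CPM in Itga8- BLCs, 201 ± 26.0 CPM in Sca-1+ MSCs and 36.4 ± 8.86 CPM in CD51+CD140a+ marrow MSCs, and Msn peaked in Sca-1+ MSCs with 1295 ± 99.0 CPM.

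Libraries of the Alcam+ populations did not overlap in Mcam, Pdpn and Cd200, or 3 of 10 markers, beside 14.2% of all tested genes. Cd200 was the marker called between these populations. The gene lies at chr16:45382135-45409053 on the minus strand and encodes a membrane glycoprotein whose receptor restrains myeloid cells. It was 272, 285 and 495 CPM in Itga8- BLCs and 78.9, 121 and 89.0 CPM in Itga8+ MSCs. Among Sca-1+ MSCs it was 66.9, 63.2 and 75.2 CPM, and in CD51+CD140a+ marrow MSCs 108, 109 and 135 CPM. The Itga8- BLC libraries were above all others, and the remaining populations lay close together. Cd200 was 3.64-fold lower in Itga8+ MSCs than in Itga8- BLCs (log2 fold change -1.86 ± 0.30, FDR = 0.00535), but the FDR was 0.103 when only those 6 libraries were fitted. Itga8- BLCs were also 5.12-fold above Sca-1+ MSCs (FDR = 0.000323) and 2.98-fold above CD51+CD140a+ marrow MSCs (FDR = 0.00200). Sca-1+ MSCs were 1.72-fold below CD51+CD140a+ marrow MSCs with FDR = 0.0935, a difference under the fold limit. Between Itga8+ and CD51+CD140a+ marrow MSCs the libraries overlapped (log2 fold change -0.29 ± 0.29, FDR = 0.466). Itga8- BLCs were the population with the highest osteoblast and osteocyte sums, and their part in the Cd200 difference was not tested. The receptor gene Cd200r1 was at most 6.39 CPM in any library.

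The start sites of Cspg4, Pdpn and Cd44, which were called higher in all populations from bone than in CD51+CD140a+ marrow MSCs, can be set beside that of Eng, which had its highest mean in CD51+CD140a+ marrow MSCs. The stretches below are 150 bases upstream of both the RefSeq and the GENCODE start, 5′ to 3′ on the gene's strand, from RefSeq (GRCm38.p6), at chr9:56864883-56865032 (plus strand) for Cspg4, chr4:143299565-143299714 (minus) for Pdpn, chr2:102901666-102901815 (minus) for Cd44 and chr2:32646445-32646594 (plus) for Eng. Counted from the RefSeq start, they span positions -150 to -1, except for Cspg4, where they span -221 to -72 because its GENCODE start lies upstream of the RefSeq start. Capitals mark GGGCGG, the GC box, on either strand (CCGCCC when read on the other), and CANNTG, the E-box.
Cspg4: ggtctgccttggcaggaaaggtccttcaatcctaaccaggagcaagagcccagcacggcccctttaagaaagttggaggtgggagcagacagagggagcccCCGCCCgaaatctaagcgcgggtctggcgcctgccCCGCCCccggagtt
Pdpn: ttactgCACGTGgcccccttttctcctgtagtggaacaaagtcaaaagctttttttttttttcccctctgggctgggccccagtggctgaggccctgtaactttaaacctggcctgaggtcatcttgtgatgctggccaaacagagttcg
Cd44: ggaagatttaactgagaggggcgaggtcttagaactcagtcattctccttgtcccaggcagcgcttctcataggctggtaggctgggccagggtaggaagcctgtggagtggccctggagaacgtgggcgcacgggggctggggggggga
Eng: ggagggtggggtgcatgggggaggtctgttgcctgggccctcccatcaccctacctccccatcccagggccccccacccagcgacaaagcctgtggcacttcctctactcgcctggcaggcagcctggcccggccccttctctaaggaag
In these stretches Cspg4 held 2 GC boxes, Pdpn held 1 E-box, and Cd44 and Eng held none of those letters. RefSeq promoters, from 250 bases before to 50 after the start, were at hand for 9 of the 10 markers, all but Thy1. In these windows GGGCGG was found in 8 of 9 markers, all but Eng, against 35.7% of all promoters in the table. CANNTG, whose matches do not overlap with GGGCGG, was found in 6 of 9, against 72.3% of all. TATAAA and CCAAT were found in 0 of 9, against 13.6% and 37.4% of all promoters.

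Among 16 other stromal surface markers, in Itga8+ MSCs 6 were called lower than in CD51+CD140a+ marrow MSCs (Vcam1, Pdgfrb, Lepr, Cd151, Enpep and Mme) and 1 higher (Cd9), where 35.6% of all genes were called. In Itga8- BLCs 6 were lower and 3 higher (35.3% of all genes called), and in Sca-1+ MSCs 4 were lower and 3 higher (20.5%). Their median log2 fold changes were -0.48, -1.05 and 0.16. Lepr, the leptin receptor of perivascular stromal cells, was 34.3 ± 24.9 CPM in Itga8+ MSCs, 24.5 ± 21.8 CPM in Itga8- BLCs and 201 ± 16.9 CPM in Sca-1+ MSCs, against at least 5727 CPM in each CD51+CD140a+ library. Against Sca-1+ MSCs, 6 of 16 were lower in Itga8+ MSCs and 0 higher (21.7% of all genes called), among them Cd248 (endosialin; log2 fold change -5.51 ± 0.65, FDR = 0.000284) and Anpep (CD13; -4.49 ± 0.94, FDR = 0.00780). Fap was higher in Itga8- BLCs, at 426 ± 187 CPM, than in each of the other populations, whose means were 169 to 191 CPM. Over 36 tested genes whose products bind or act with the markers other than Thy1, 2 were called higher and 1 lower in Itga8+ MSCs than in Itga8- BLCs (3.82% of all genes called), 6 were higher and 9 lower than in Sca-1+ MSCs (21.7%), and 10 higher and 9 lower than in CD51+CD140a+ marrow MSCs (35.6%). In Itga8- BLCs 4 were higher and 15 lower than in Sca-1+ MSCs (26.4%) and 10 higher and 9 lower than in CD51+CD140a+ marrow MSCs (35.3%), and in Sca-1+ MSCs 13 were higher and 2 lower than in CD51+CD140a+ marrow MSCs (20.5%).

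The genes closest to each marker over the 12 libraries were found by the root mean square difference of centred log2(CPM + 1), among 9146 genes with a mean of at least 10 CPM. For Cspg4 they were Lgr6, Sema3d and Nfatc2 (differences of 0.67 to 0.68), all low in CD51+CD140a+ marrow MSCs, where Sema3d was 1.43 CPM against 65.8 to 131 CPM in the others. For Pdpn they were Fam198b, Pdgfc and Ccdc149 (0.47 to 0.55), and for Mcam Rab27b, Prr5l and Pth1r (0.53 to 0.59), of which Pth1r, the parathyroid hormone receptor, was 655 CPM in Itga8- BLCs and 76.6 to 220 CPM in the other populations. For Cd200 they were Pck2, Rcn1 and Ddx59 (0.32 to 0.37), for Thy1 Serpinb6a, Ugp2 and Tnfaip6 (0.29 to 0.37), and for Eng Stat2, Eps15l1 and Leng8 (0.38 to 0.43). For Nt5e they were Dusp8, Gm38391 and Ehd4 (0.34 to 0.38), for Cd44 Gm26840, D630045J12Rik and Plec (0.42 to 0.47), for Nes Abhd2, Sec61a1 and Gm44170 (0.48 to 0.54), and for Ngfr, itself near the floor, Pura, Suds3 and Nudt3 (0.20 to 0.24). Among the 10 markers themselves the closest pair was Mcam and Cd200, at 0.76. These differences are not scaled to how much a gene varies. Around their own means, Mcam and Cd200 had root mean squares of 1.21 and 0.89.

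How far the estimates rest on single libraries differed between the markers. Of 29 called differences among the 60 tested, 22 kept their call under each alternative run, and the 7 that did not involve Ngfr, Nes, Mcam, Thy1, Cd44 and Cd200. Leaving out each library in turn moved the log2 fold change of Cspg4 between Itga8+ MSCs and Itga8- BLCs from -1.96 to 0.80, but that of Cd200 only from -2.04 to -1.54.

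**Figure D4:**
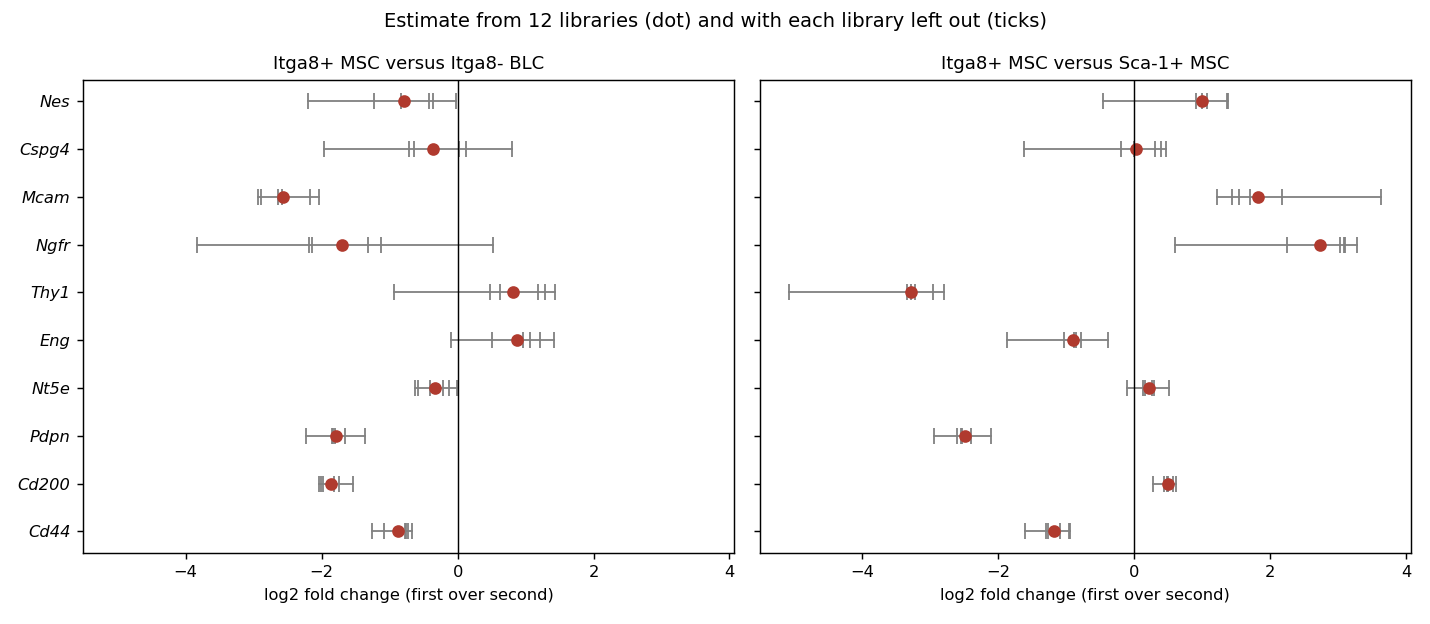
Log2 fold change (first population over second) of each marker from all 12 libraries (dots) and with each of the 6 libraries compared left out in turn (ticks), for Itga8+ MSCs against Itga8- BLCs and against Sca-1+ MSCs. The ticks of Cspg4 lie on both sides of 0 in both panels, those of Cd200, Pdpn and Cd44 do not, and Ngfr values rest on 0 to 43 counts per library.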

How the data were processed

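RNA from 2000 sorted cells per library was amplified by the authors with a SMART-Seq kit and made into Nextera XT libraries. Each of the 12 deposited tables holds unnormalized read counts, 1 row per Ensembl gene. Per the labels, the submitters' processing notes list mm10, FastQC 0.11.7, Trimmomatic 0.38, HISAT2 2.1.0, SAMtools 1.9 and featureCounts 1.6.3, whereas the study's methods name TopHat and Bowtie2 for mapping. The annotation release and the strand setting are not given in the sources used here, so reads of overlapping genes on opposite strands may not be told apart.

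Populations and replicate numbers were taken from the labels. Symbols and exon lengths came from GENCODE M21. The counts were analysed in R 4.3.3 with edgeR 4.0.16 (TMM scaling, quasi-likelihood test), with all 12 libraries in 1 fit with population as the only term, after genes that never reached 0.5 CPM had been removed (18648 remained). Printed CPM are scaled by TMM. Calls required FDR under 0.1 and fold change above 2, the limits that the study states. SE is that of the log2 fold change, and SD is over 3 libraries. A gene with 3 counts or fewer was taken as at the floor. An exact permutation test (two-sided) was added for single markers. The procedure was tested on simulated counts.

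Alternatives were DESeq2 1.42.0, limma 3.58.1 with a prior count of 2, other size factors, library totals alone, other filters (none beyond 1 count, or at least 10 counts in at least 3 libraries), the 6 libraries compared alone, a replicate block, thinning to the smallest library, an FDR of 0.05, leaving out each library, and leaving out either pair of Alcam+ libraries that stood apart by gene length. The named genes were all markers, the 3 genes most like each, and genes of the lists of sort genes, other surface markers, partners and cell types that were called or needed beside a marker. The markers and lists were chosen with earlier results of these data known. Results on some genes of these lists are not reported here.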

Additional observations from a re-analysis of the deposited data

How the results depend on the processing

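Directions and calls of the markers were recomputed under 14 to 18 alternatives for each marker and comparison, among them 2 chosen after seeing the data, which left out the pair of libraries in which long genes were high (Itga8+ MSC replicate 3 and Itga8- BLC replicate 2) or the pair in which they were low (Itga8+ MSC replicate 2 and Itga8- BLC replicate 3). Ngfr was removed by the filter of 10 counts in 3 libraries and has no value there. Of 29 called differences 22 kept their call throughout and 0 turned their direction, while 6 uncalled differences were called under an alternative and 9 turned, 1 of them (Cspg4 between Itga8+ and Sca-1+ MSCs) doing both. The number of markers called between Itga8+ MSCs and Itga8- BLCs, 1 in the reported fit, was 2 with DESeq2, which added Pdpn (FDR = 0.0554), and 0 when only the 6 libraries compared were fitted. In the other comparisons it stayed within 1.5 times. Over all genes, the count for that comparison was 712 in the reported fit, 1203 with DESeq2, 276 with the 6 libraries alone and 433 without Itga8- BLC replicate 3. Against Sca-1+ MSCs the Itga8+ count of 4055 fell to 2386 to 2642 when any Sca-1+ library was left out, and was 6304 without the pair high in long genes.

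The differences that turned were not called in the reported fit, and the cause was not tested. Cspg4 between Itga8+ and Sca-1+ MSCs was called lower once turned, without Itga8+ MSC replicate 3 (FDR = 0.0922) and without the pair high in long genes (FDR = 0.0140). Leaving out single libraries, the log2 fold changes between Itga8+ MSCs and Itga8- BLCs ranged from -1.96 to 0.80 for Cspg4, from -3.84 to 0.51 for Ngfr, from -0.94 to 1.43 for Thy1 and from -0.10 to 1.42 for Eng. Between Itga8+ and Sca-1+ MSCs they ranged from -1.62 to 0.47 for Cspg4, from -0.45 to 1.38 for Nes and from -0.11 to 0.51 for Nt5e. Mcam ranged from -0.21 to 1.5 between Itga8+ and CD51+CD140a+ marrow MSCs, and Cspg4 from -0.80 to 0.72 between Itga8- BLCs and Sca-1+ MSCs. With limma-trend, Cspg4 between Itga8+ and Sca-1+ MSCs was -0.61. Without the pair high in long genes, Itga8+ over Sca-1+ MSCs gave -0.41 for Nes, -1.58 for Cspg4 and -0.063 for Nt5e, and Itga8- BLCs over Sca-1+ MSCs gave -0.76 for Cspg4. Without the pair low in long genes, Thy1 was -0.29 between Itga8+ MSCs and Itga8- BLCs, and the call of Cd44 between Itga8+ and Sca-1+ MSCs was lost (FDR = 0.170).

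The replicate numbers did not pair the samples: in no comparison were all 3 correlations of same-numbered libraries over 0.1, and those between Itga8+ MSCs and Itga8- BLCs were 0.204, -0.582 and -0.503 over 18648 genes. Libraries of different number deviated together more, with 0.617 for Itga8+ replicate 3 and Itga8- replicate 2 and 0.59 for Itga8+ replicate 2 and Itga8- replicate 3. With the replicate block, 433 genes were called between these populations, Cspg4 between Itga8+ and Sca-1+ MSCs was -0.17, and the calls of Cd44 (Itga8+ against Sca-1+ MSCs, FDR = 0.150), Ngfr (Itga8- BLCs against Sca-1+ MSCs, FDR = 0.242) and Nes (Itga8- BLCs against CD51+CD140a+ marrow MSCs, FDR = 0.111) were lost. It changed no other call of the markers.

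Scaling by library totals alone moved the median log2 fold change over the genes tested from 0.08 to 0.34 between Itga8+ MSCs and Itga8- BLCs, from 0.12 to -0.07 and from 0.09 to -0.24 between Itga8- BLCs and the Sca-1+ or CD51+CD140a+ marrow MSCs, and to -0.15 between the last named populations, without turning any marker. Depth limits Ngfr throughout and Thy1 outside Sca-1+ MSCs, which had at most 43 and 22 counts in a library.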
